A study of Brassica napus with 3 samples.

Results

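Isolated H3K4me3 summits that a selected canola line, PEG1, and its control line had in common were described in leaf chromatin read against Brassica oleracea. H3K4me3 is histone H3 trimethylated on lysine 4, and a summit is the base at which a peak of the mark is highest. A summit of the control list was taken as an island when its next control summit on each side of the same scaffold lay over 20 kb away and a PEG1 summit lay within 150 bp. The islands were thus chosen by the measured summit positions of both lists. By this rule 1220 of the 36371 control summits, 3.35%, were islands, on 496 of 1244 scaffolds. The stretch from an island to its next control summit is called an island gap. There were 2160 distinct island gaps, of which 280 had an island at both ends and 1880 at one end.

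The material was leaf tissue of Brassica napus, an allotetraploid whose A and C subgenomes come from relatives of B. rapa and of B. oleracea. The groups used here were 1 H3K4me3 library of PEG1, labelled a selected epiline, and 1 H3K4me3 library of the control line. The cultivar of both lines is given as L. spp. oleifera (Metzg) Sinsk. f. biennis, and both were untreated and sampled at 26 days, from leaf 4. Per the labels' protocols the ChIP was native, on mononucleosomes released with micrococcal nuclease and not crosslinked. The number of plants behind a library, and whether the selected line descends from a single plant, is not stated in the labels. The no-antibody library of the control line was not analysed here. The lists carry no gene names, so the tissue label was not checked against marker genes and no island was assigned to a gene.

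H3K4me3 is deposited by COMPASS-type methyltransferases and sits mainly on the first nucleosomes of transcribed genes, where proteins with PHD fingers bind it. In plants, gene-rich chromosome arms carry many such sites, while repeat-rich heterochromatin, built largely of transposable elements, carries few. Genes and repeats were not mapped here.

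Depth is unknown for both libraries. The PEG1 list on B. oleracea held 40707 summits and the control list 36371, or 89.2 and 80.3 summits per Mb of the span the lists cover. Each summit carries a −log10 significance score that rises with depth, so scores were read within a list. With 1 library per line differences between the lines have no replicate check, and neither a test nor a p-value could be had. Intervals are at 95% and cover counting error alone. Positions are 1-based, on the BGI scaffolds version V2 of TO1000, and scaffolds are named by the code that ends their names.

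The rule used the positions of both lists, so the following counts on its threshold are a description. Of the 1526 isolated control summits, 79.9% had a PEG1 summit within 150 bp (Wilson interval 77.9 to 81.9), against 77.2% of all control summits. Of the other 306, a PEG1 summit lay over 150 and up to 300 bp away for 138, over 300 and up to 500 bp for 79, over 500 and up to 2000 bp for 32, and farther for 57. The summits nearest the 20 kb limit had their nearer control neighbour at 20014, 20027 and 20033 bp (inside) and at 19998, 19994 and 19993 bp (outside). The isolated summits nearest the 150 bp limit had the PEG1 summit at 149 bp in 3 cases (inside) and at 152, 154 and 154 bp (outside).

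The islands scored above the middle of each list. Their median score was 28.5 in PEG1 (quartiles 16.6 and 40.8) and 19.8 in the control (10.9 and 30.6). Over the whole lists the PEG1 median was 21.2 and the control median 16.5. Shared summits that were not islands had medians of 27.0 in PEG1 and 18.8 in the control, close to those of the islands. The median island stood at percentile 64.2 of the PEG1 list (interval 61.6 to 66.2) and at percentile 59.3 of the control list (56.8 to 61.7). The other shared summits stood at 60.9 (60.4 to 61.6) and 56.8 (55.8 to 56.9). In the PEG1 list 16.1% of the islands (14.2 to 18.3) were among the upper 10% of scores, and in the control list 13.3% (11.5 to 15.3). The share of each full list there is 10% by construction, but a full list is not a like set, because islands are shared by the rule. Strong summits were shared more often: 90.3% of isolated control summits in the strongest of 4 classes of control score, and 60.3% in the weakest. The share of other shared summits among the upper 10% is not given. The isolated control summits that PEG1 did not share scored lower, with a median of 10.6 in the control.

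**Figure D1:**
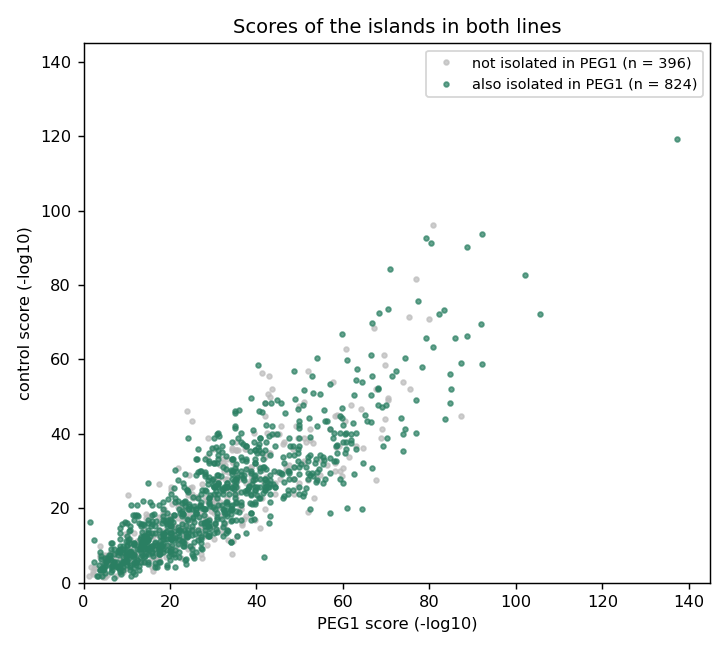
Each point is 1 of the 1220 islands, with its score in the PEG1 list on the x axis and in the control list on the y axis (both −log10 scales of significance, which depend on depth). Islands that were also isolated in PEG1 (n = 824) and those that were not (n = 396) overlap over most of the range of scores.

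The order of the islands by score was much alike in the lines. Spearman's rho of PEG1 and control scores was 0.87 over the 1220 islands and 0.85 over the 26864 other shared summits. These are descriptions: the points share their libraries and were chosen for being called in both. The PEG1 percentile was the higher for 60.7% of the islands (58.0 to 63.4), against 60.3% of all shared summits. The PEG1 and the control summit of an island lay a median of 28 bp apart (quartiles 12 and 56 bp), against 29 bp for other shared summits, and 71.0% of both kinds lay within 50 bp. In 20 islands both summits fell on the same base. The other shared summits were matched by the same limit of 150 bp, and their distances were nearly those of the islands.

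The 5 islands with the best control scores set a strong site against a long stretch with few or no other summits. The island on scaffold ERB29523 at 213936 scored 137.2 in PEG1, the highest score of that list, and 119.2 in the control. Its gaps, of 20700 bp to the left and 42156 bp to the right, held no PEG1 summit over 500 bp from their ends. The island on ERB29324 at 1384582 scored 92.1 in PEG1 and 93.7 in the control, with gaps of 63482 and 64468 bp and no PEG1 summit in either.

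Another 2 of the 5 also had gaps without PEG1 summits. The island on ERB29364 at 57664 scored 79.2 in PEG1 and 92.7 in the control, and that on ERB29331 at 2372807 scored 80.4 in PEG1 and 91.3 in the control. The remaining one differed. The island on ERB29588 at 327355 scored 80.9 in PEG1 and 96.2 in the control, and the right-hand gap of 31033 bp held 2 PEG1 summits, one 969 bp from the control summit (score 37.6) and one 7175 bp away (2.67).

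PEG1 summits appeared in a minority of the island gaps, mostly singly. Of the 2160 gaps, 669 held a PEG1 summit over 500 bp from both ends, 31.0% (29.1 to 33.0). It was 33.3% of all 6187 control gaps over 20 kb and 34.6% (33.1 to 36.1) of the 4027 that flank no island. One such summit lay in 530 of the island gaps, 2 in 116 and 3 or more in 23, with at most 5 in a gap. Seen from the islands, 53.1% (50.3 to 55.9) had a PEG1 summit in at least one of their gaps, against 53.3% of all isolated control summits, and 9.02% had one in both, against 9.04%. The 835 PEG1 summits inside island gaps amounted to 8.63 per Mb of gap (8.06 to 9.24), against 11.8 per Mb (11.3 to 12.4) in the other control gaps over 20 kb and 23.4 per Mb (22.7 to 24.1) in control gaps of 2 to 20 kb. The island gaps took 22.1% of the span of the control list and held 11.1% of the 7501 PEG1 summits with no control summit within 500 bp. Gaps around islands thus held a PEG1 summit somewhat less often than other long gaps did, and per Mb less densely. The sets are unlike by the rule: an island end has a PEG1 summit within 150 bp, and the ends of other gaps need not. The part of this in the contrast was not tested.

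**Figure D2:**
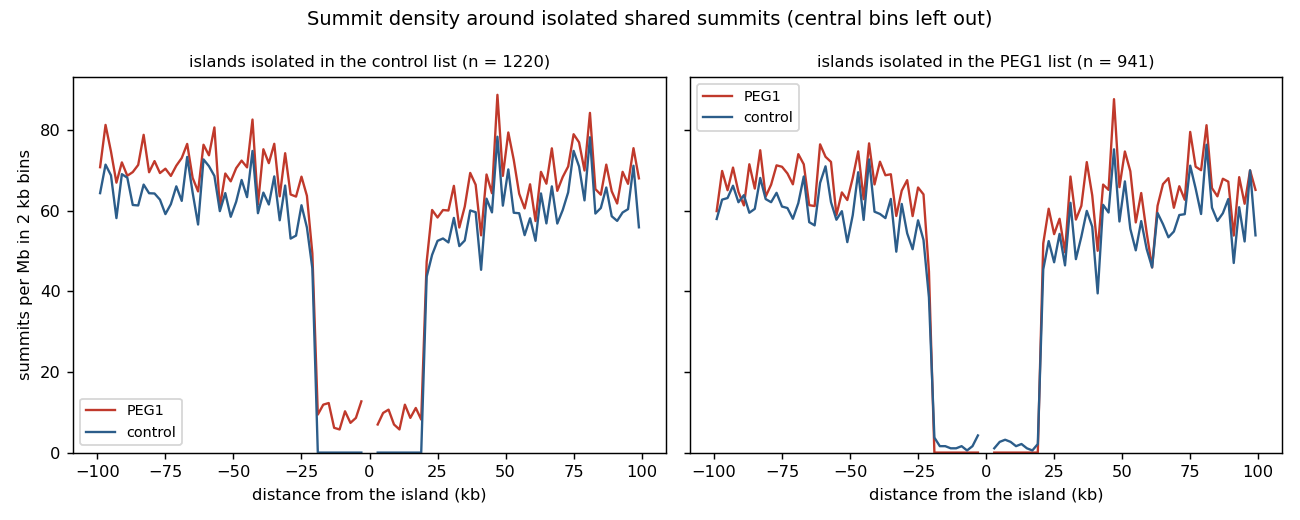
Summits per Mb in bins of 2 kb (y axis) by distance in kb from the island (x axis), for islands isolated in the control list (left, n = 1220) and for islands found with the lines exchanged (right, n = 941). Within 20 kb the isolating line is empty by the rule; PEG1 summits ran at 9.13 per Mb from 2 to 20 kb on the left, and control summits at 1.89 per Mb on the right.

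A gap that is chosen for holding no control summit can gain summits from PEG1 but cannot lose any, so the rule was also run with the lines exchanged. This gave 941 islands isolated in PEG1 and 1718 gaps. PEG1 summits stood in 31.0% of the control island gaps, while control summits stood in 9.55% (8.25 to 11.0) of the PEG1 island gaps, against 11.1% of all PEG1 gaps over 20 kb. Per Mb the values were 8.63 PEG1 summits and 2.30 control summits (1.97 to 2.67). The PEG1 list holds more summits than the control list, and that length goes into both values. When the PEG1 list was reduced to its 36371 best-scored summits, as many as the control list holds, PEG1 summits stood in 20.1% (18.5 to 21.9) of control island gaps and control summits in 16.4% (14.9 to 18.1) of PEG1 island gaps. When a gap counted as filled only by a summit at or above the median score of its list, the shares were 1.34% (0.936 to 1.92) for PEG1 summits and 1.22% (0.801 to 1.86) for control summits, with overlapping intervals. In this last setting few summits counted: 30 of the 835 PEG1 summits, of which 22 lay over 500 and up to 1000 bp from a gap's end. It therefore says little about filling deeper in the gaps. The directions stood closer together in both of these settings. They stayed farther apart when each list was limited to scores at or above its own median and isolation was taken anew. PEG1 summits then stood in 28.7% of control island gaps and control summits in 13.8% of PEG1 island gaps. Weaker summits were left out of both lists there, so these gaps can hold weaker summits of the line that defines them. This setting therefore does not show strong summits in gaps that are empty in the full list.

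A comparison in which neither line defined the gap alone was added after the data were seen. It used intervals between neighbouring shared summits. Around the 1907 shared summits that lay over 20 kb from the next shared summit on each side, 1200 of them islands, the intervals held 1538 PEG1 summits with no control summit within 500 bp and 580 control summits with no PEG1 summit within 500 bp. The ratio was 2.65 (2.41 to 2.92). In the whole lists it was 2.30, from 7501 and 3255 summits. By interval length the ratio was 1.47 (1.29 to 1.67) from 2 to 5 kb, 1.85 (1.67 to 2.06) from 5 to 10 kb, 2.41 (2.21 to 2.63) from 10 to 20 kb, 2.62 (2.42 to 2.83) from 20 to 50 kb and 2.86 (2.54 to 3.23) above. PEG1 summits without a control partner therefore outnumbered control summits without a PEG1 partner in every length class, and by more in the longer intervals. Both kinds were sparser in the longer intervals: from 2 to 5 kb there were 28.7 PEG1 and 19.5 control summits of this kind per Mb, and above 50 kb 8.44 PEG1 and 2.95 control summits. The lists differ in length and the depths are unknown, and the part of these in the ratios was not tested.

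**Figure D3:**
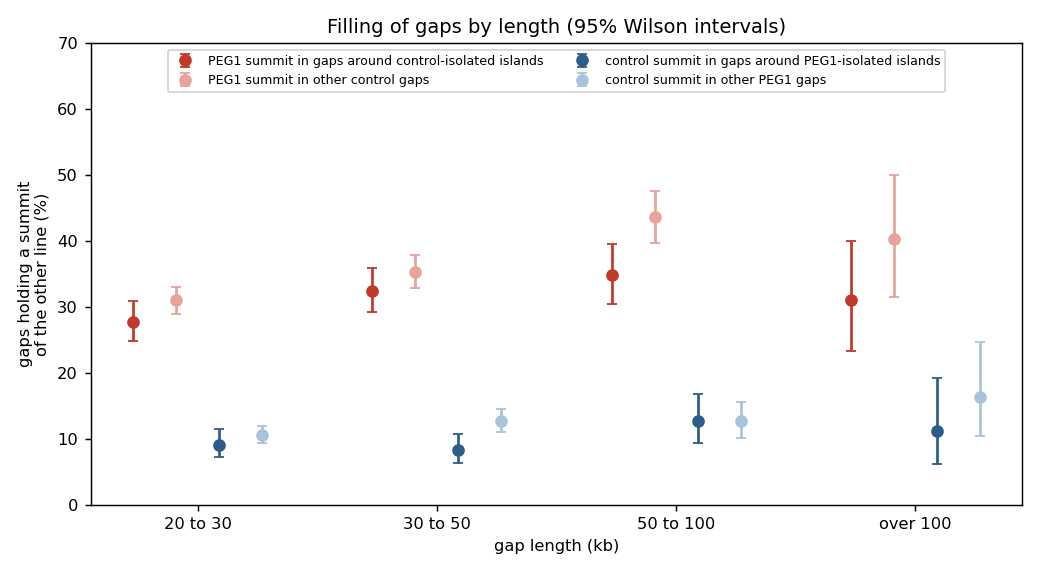
Share of gaps holding a summit of the other line (y axis, %) by gap length in kb (x axis), with 95% Wilson intervals. For PEG1 summits in control gaps the share around islands lay between 27.7 and 34.8% in the 4 length classes, and for control summits in PEG1 gaps between 8.25 and 12.6%.

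Longer island gaps did not hold proportionally more PEG1 summits. In island gaps of 20 to 30 kb 27.7% held a PEG1 summit (24.8 to 30.8), in gaps of 30 to 50 kb 32.5% (29.2 to 35.9), in gaps of 50 to 100 kb 34.8% (30.4 to 39.5) and in the 116 gaps over 100 kb 31.0% (23.3 to 39.9). Per Mb there were 13.3, 10.5, 6.85 and 2.94 PEG1 summits in these 4 classes, fewer in each longer class. The other control gaps over 20 kb ran higher at 50 to 100 kb, with 43.6% (39.7 to 47.6) holding a PEG1 summit, while in the remaining classes the intervals of the 2 kinds overlapped. Per Mb these other gaps held 15.8, 12.5, 9.37 and 3.90 PEG1 summits in the same 4 classes, more than island gaps in each. The intervals per Mb were apart at 50 to 100 kb (8.44 to 10.4 against 5.92 to 7.89 for island gaps) and overlapped in the remaining classes.

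The longest island gap held no PEG1 summit. It spanned 452002 bp on ERB29334 from 884376 to 1336378. It had an island at each end, with PEG1 summits 29 and 25 bp from them, and no PEG1 summit between. The gap of 434434 bp on ERB29386 from 85152 to 519586 was empty too, and PEG1 had a summit on the same base as the control summit at its left end. The next 3 empty ones were 312402 bp on ERB29328 from 1416935, 310211 bp on ERB29333 from 45169 and 257751 bp on ERB29352 from 777928. At the 10 ends of these 5 gaps, PEG1 summits lay at most 62 bp from the control summits. How much of each gap is known sequence that reads can be placed on was not measured.

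The 5 islands with the longest gaps on both sides together stood at the ends of 3 of these empty gaps and of others that PEG1 summits entered. The island on ERB29386 at 519586 scored 14.7 in PEG1 and 11.1 in the control, and its neighbours in the control list lay 685549 bp apart. The island on ERB29334 at 1336378 scored 47.5 in PEG1 and 27.9 in the control, with 685037 bp between its control neighbours. The third, on ERB29352 at 777928, scored 24.0 in PEG1 and 12.1 in the control, and 2 PEG1 summits stood in its left-hand gap of 274558 bp. The fourth, on ERB29334 at 884376, scored 19.4 in PEG1 and 15.1 in the control. The fifth, on ERB29450 at 411472, scored 30.8 in PEG1 and 20.2 in the control, and the gap of 442065 bp to its right held 2 PEG1 summits. As a description over the 1220 islands, rho of the control score and the distance between the control neighbours was 0.03.

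The islands with the most PEG1 summits in their gaps had weak ones. On ERB29425 at 569374 (score 20.3 in PEG1 and 17.9 in the control) 5 PEG1 summits stood in the left-hand gap of 119612 bp and 2 in the right-hand gap of 92057 bp, the largest number at any island. Their scores were 11.6, 1.67, 8.04, 5.02 and 9.99 on the left and 3.22 and 3.22 on the right, all below the island's own. On ERB29397 at 579543 (20.3 in PEG1 and 25.8 in the control) there were 5, with scores between 7.07 and 12.4.

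A total of 13 islands had 4 PEG1 summits in their gaps, and the 3 of them that come first by scaffold name and position are given. On ERB29329 at 1913946 (9.22 in PEG1 and 7.69 in the control) they scored 3.34 to 7.65, and 3 of them lay between 4182 and 5825 bp to the left of the control summit. On ERB29349 at 1424216 (6.72 in PEG1 and 4.29 in the control) the scores were 2.77 to 7.68, all in the right-hand gap of 77943 bp. On ERB29343 at 625445 (69.5 in PEG1 and 61.1 in the control) 3 of the 4 scored 2.67 to 8.75, and one scored 49.6, which stood 510 bp from the control summit at the far end of the gap.

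**Figure D4:**
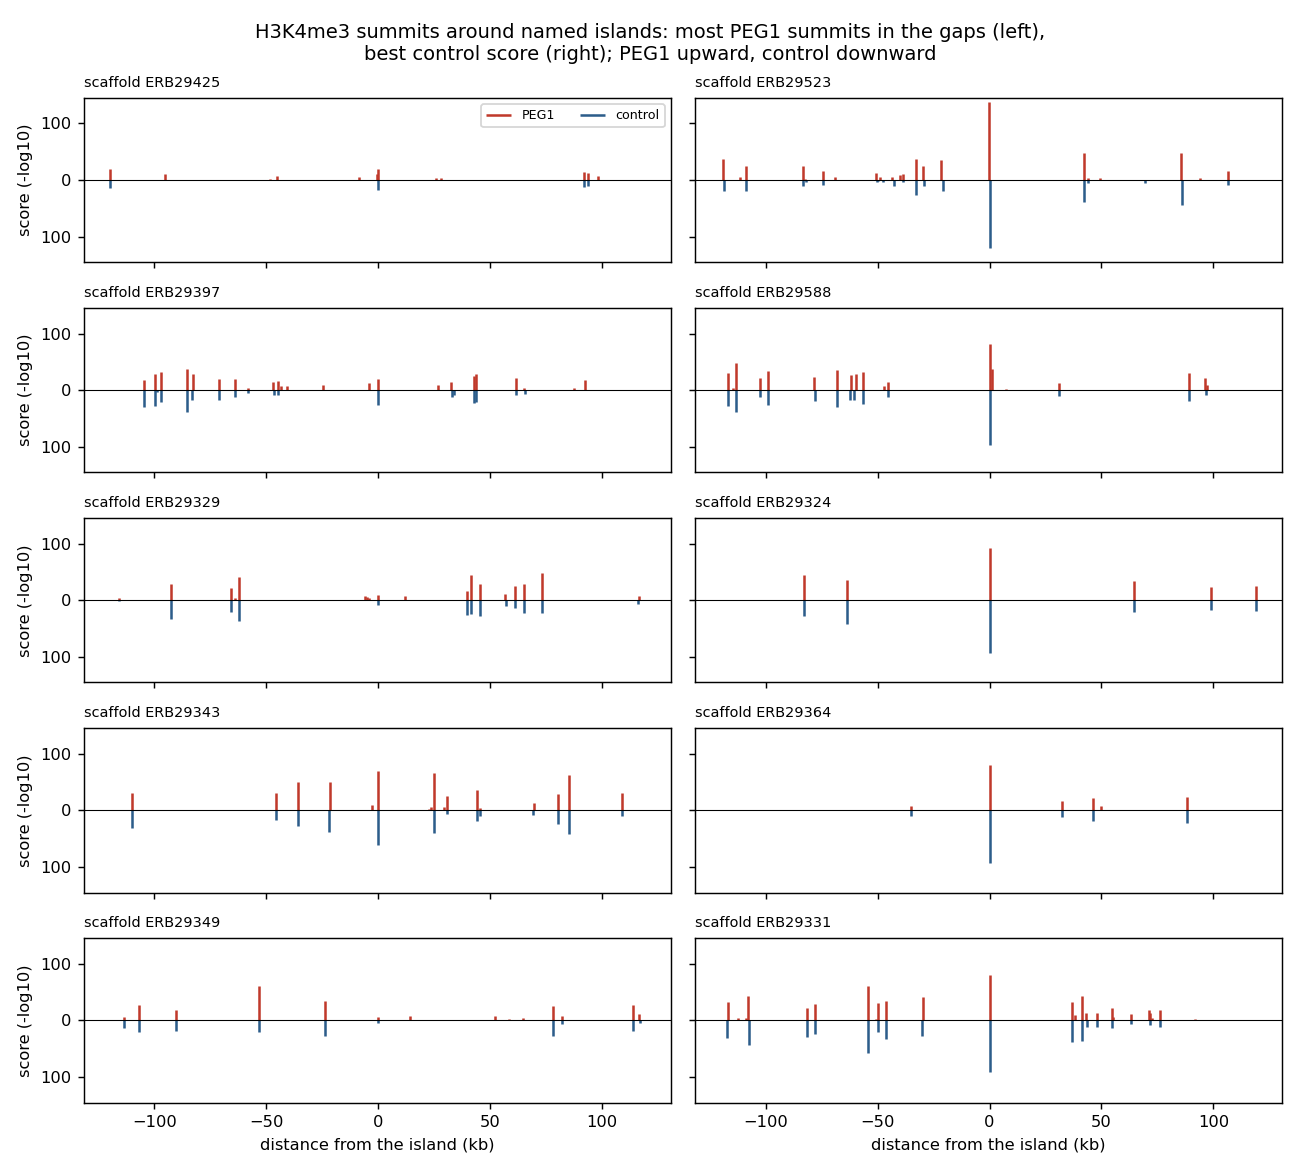
Summits within 120 kb of named islands by distance in kb (x axis), with PEG1 scores drawn upward and control scores downward (y axis, −log10). Left, 5 islands with the most PEG1 summits in their gaps (the lower 3 are the first by scaffold name among 13 tied at 4), where the added PEG1 lines are short apart from the one of 49.6 on ERB29343; right, the 5 islands with the best control scores, where both lines share the tall central summit.

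The PEG1 summits inside island gaps were weak as a group. Their median score was 5.89 (quartiles 3.79 and 9.14), at percentile 13.7 of the PEG1 list (13.3 to 15.5). Above the median of that list lay 3.59% of them (2.53 to 5.08), against 49.6% of all PEG1 summits. Among the 36371 best-scored PEG1 summits were 60.4% (57.0 to 63.6), against 89.3% of all. PEG1 summits without a control summit within 500 bp that stood outside island gaps had a median percentile of 14.0 (13.6 to 14.4), and 8.45% (7.80 to 9.14) of them scored above the list median. Control summits in PEG1 island gaps were weak in their own list as well, with a median percentile of 12.4 (11.3 to 14.1), and 12.1% (8.03 to 17.7) of these 174 scored above the median of the control list.

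**Figure D5:**
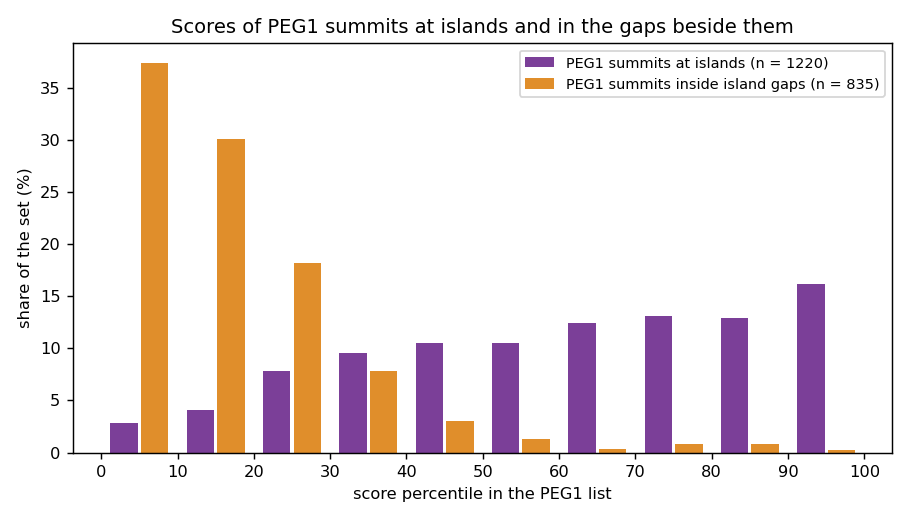
Share of each set (y axis, %) by score percentile in the PEG1 list (x axis, bins of 10 percentiles). PEG1 summits inside island gaps (n = 835) fill the lowest bins, with 37.4% in the lowest, while PEG1 summits at the islands (n = 1220) rise toward the top, with 16.1% in the highest.

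The few strong PEG1 summits in island gaps mostly stood next to a control summit at a gap's end. Of the 85 that lay over 500 and up to 1000 bp from the nearer end, 22 scored above the median of the PEG1 list, 25.9% (17.8 to 36.1). From 1000 to 2000 bp it was 4 of 93, from 2000 to 5000 bp 0 of 138, from 5000 to 10000 bp 3 of 212, and beyond 1 of 307. At 18 of the 22 strong ones within 1000 bp, the control summit at that end had no PEG1 summit within 500 bp, so PEG1 had a summit beside the control position and none on it or within 500 bp of it. The 5 best-scored all belonged here: ERB29485 at 497442 (score 51.1, 806 bp from the control summit), ERB29343 at 603921 (49.6, 510 bp), ERB29441 at 647356 (48.8, 920 bp), ERB29450 at 18229 (47.99, 957 bp) and ERB29322 at 526690 (46.4, 694 bp). In all 5 the near end was the control summit that was not the island. For an end with no PEG1 summit within 500 bp this was fixed in advance, because an island has a PEG1 summit within 150 bp by the rule. With a limit of 1000 bp in place of 500 bp, such a summit would be matched to that control summit and not counted inside the gap.

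Strong PEG1 summits deep inside island gaps were few. Just 4 scored above the list median and lay over 2000 bp from both ends, and they are named here after their values were seen. They were ERB29348 at 351107 (score 34.5, 5272 bp from the nearer end), ERB29348 at 809708 (30.9, 9157 bp), ERB29661 at 154090 (27.1, 6638 bp) and ERB29476 at 423804 (25.1, 13826 bp).

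PEG1 summits were somewhat denser close to islands than farther into the gap. From 500 to 1000 bp of an island there were 29.5 per Mb (20.7 to 40.9), from 1000 to 2000 bp 22.1 (16.6 to 28.9), from 2000 to 5000 bp 9.29 (7.21 to 11.8), and from there to 20 kb between 8.20 and 10.0 per Mb. With the lines exchanged, control summits ran at 20.2 per Mb (12.2 to 31.5), 9.56 (5.67 to 15.1) and 2.48 (1.36 to 4.16) at the first 3 distances and between 1.28 and 2.02 beyond. Both were densest next to the island, and the falls were not tested against each other. PEG1 summits also lay close to the ends of gaps that were not islands. In the 1880 gaps with an island at 1 end, 4.13% of the 726 PEG1 summits lay within 1000 bp of the island end and 6.75% within 1000 bp of the other end. Within 2000 bp it was 9.64% and 12.1%. Both kinds of end are unlike by the rule, because an island has a PEG1 summit within 150 bp. For 29 of the 85 PEG1 summits over 500 and up to 1000 bp from the nearer end, the control summit there had no PEG1 summit within 500 bp. From 1000 to 2000 bp it was 4 of 93. Such a control summit cannot be an island, so the shares do not show which kind of end held more. Over all island gaps the PEG1 summits lay a median of 7364 bp from the nearer end, and 13.3% (11.2 to 15.8) lay over 20000 bp from it.

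Most islands were isolated in PEG1 too. The PEG1 summit had its own next PEG1 summit over 20 kb away on each side for 824 of the 1220, or 67.5% (64.9 to 70.1). Of all shared control summits with a neighbour on each side, islands included, it was 3.52%. Seen from the 941 islands isolated in PEG1, the same 824 were 87.6% (85.3 to 89.5). The median distance between the neighbours on both sides was 62081 bp in the PEG1 list and 73868 bp in the control list, where each side exceeds 20 kb by the rule. In PEG1 the distance was shorter by over 1000 bp for 605 of 1217 islands, 49.7% (46.9 to 52.5), against 26.1% of all shared summits. It was within 1000 bp for 46.5% (43.7 to 49.3), and longer by over 1000 bp for 3.78% (2.85 to 5.00), against 9.30% of all shared summits. Islands were chosen for long control distances and the other shared summits were not. A shorter distance in PEG1 is thereby favoured for islands, and the contrasts with all shared summits are a description. With the lines exchanged, the control distance was shorter by over 1000 bp for 14.5% (12.4 to 16.9) of islands and longer for 23.9% (21.3 to 26.8).

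The isolation kept in PEG1 did not rise steadily with the score of the island. In the weakest of 4 equal classes of control score it was 61.2% (54.2 to 67.8) of 196 islands. In the next classes it was 69.5% (64.1 to 74.3) of 311 and 68.5% (63.0 to 73.6) of 292, and in the strongest 68.4% (63.8 to 72.7) of 421. The intervals of all 4 overlap. The strongest islands that kept it were, after ERB29523 at 213936, that on ERB29462 at 723985 (105.5 in PEG1, 72.2 in the control), with 142831 and 119550 bp to its PEG1 neighbours, and that on ERB29324 at 744954 (102.04 in PEG1, 82.7 in the control). The right-hand gap of the latter, 38387 bp, held 1 PEG1 summit, and the PEG1 neighbour on that side lay 26706 bp away. Next came the island on ERB29324 at 1384582 and that on ERB29344 at 1497729 (92.1 in PEG1, 58.7 in the control).

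The control summits at the far ends of the island gaps were also found in PEG1. Leaving out islands, 73.7% (71.7 to 75.7) of these 1861 had a PEG1 summit within 150 bp, where 77.2% of all control summits, islands included, did, and 91.2% (89.8 to 92.4) had one within 500 bp, where 91.05% of all did. Within 500 bp of the islands themselves, 2 further PEG1 summits were found in all. The marked sites that bound the gaps were thus mostly found in PEG1 as well.

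Some islands were neighbours of each other. For 492 of the 1220 the next control summit on at least one side was itself an island, and this held for 560 of the 2440 sides, 23.0%. The rule used these positions, and neighbouring islands share a gap that is over 20 kb for both, so the counts are a description. The islands formed 940 runs, of which 728 were single, 167 held 2 islands, 29 held 3 and 16 held 4 or more, with 7 in the longest. Of the 290 scaffolds that the control list spans over at least 500 kb, 252 carried an island. Some scaffolds were rich in islands. ERB29329 held 18 of them among 114 control summits, ERB29324 held 17 among 92, and ERB29376 held 11 among 31. On ERB29548, 7 of the 17 control summits were islands, the highest number per Mb among scaffolds of this length with at least 5. PEG1 had 135, 102, 37 and 19 summits on these 4 scaffolds.

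The same rule on the B. rapa lists of the same libraries gave 574 islands, 2.07% of 27672 control summits. A PEG1 summit stood in 34.4% (31.6 to 37.4) of their 1016 gaps, and 63.8% (59.8 to 67.6) of the islands were isolated in PEG1 as well. With the lines exchanged there were 402 islands, and control summits stood in 8.90% (7.05 to 11.2) of 730 gaps. A read that fits both references may count in both lists, so the B. rapa values are not a replicate of those on B. oleracea.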

How the data were processed

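Summit lists of 2 H3K4me3 libraries, 1 of PEG1 and 1 of the control line, were used as the authors deposited them. Per the submitters' processing notes, MACS2 (version 2.0) was used. The aligner, filters, background library and treatment of reads that fit both references are not stated. In the deposited lists, scores are −log10 values (of p or of q, which is not stated), the lowest lying just above that of 0.05. Depth is unknown. Nothing says whether a library pools plants.

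Neighbours, the nearest summit of the other line, gaps and the summits inside them were computed with Python 3.11.15, NumPy 2.4.6, pandas 2.3.3 and SciPy 1.17.1; figures used matplotlib 3.10.9. A summit counted as inside a gap when over 500 bp from both ends, and a gap between 2 islands was counted once. Densities by distance used bins inside the span of both lists on a scaffold. Percentiles are the share of a list scoring at or below a summit. Shares have Wilson intervals, densities exact Poisson intervals, medians binomial order-statistic intervals, and ratios exact conditional intervals that treat both counts as independent.

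Named regions were the 5 islands with the best control score, the longest gaps, the most PEG1 summits in gaps, or the best PEG1 score while isolated in PEG1, the 5 best-scored PEG1 summits in island gaps, the 5 longest empty gaps, and the 3 summits on each side of each limit. The members, lists and rules were chosen with earlier results of these data known. The matching code was run on a list made from the control summits, with shifts below the matching limit. Summits were added farther from the gap ends than the limit used there. Full recovery was thus set by construction, and the run checks the code and not the choice of limits. No genome of this build was used, so no sequence is shown.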

Additional observations from a re-analysis of the deposited data

How the results depend on the processing

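No paired analysis was possible because each line has 1 library, and for the same reason no library could be left out. Of 77 alternative values, 30 stayed within the main interval or, for counts, within 1.5 times. The share of control island gaps that held PEG1 summits lay above that of PEG1 island gaps that held control summits, with intervals apart, under each alternative but one. With summits at or above the median score counted, the intervals overlapped almost wholly, at 1.34% (0.936 to 1.92) and 1.22% (0.801 to 1.86), with 0.310 PEG1 summits per Mb at a median percentile of 73.1. Those PEG1 summits were few and mostly lay within 1000 bp of a gap's end. With the PEG1 list as short as the control list the shares were 20.1% and 16.4%, with 5.14 per Mb, percentile 21.0, 77.9% of islands also isolated in PEG1 and 77.5% of isolated control summits shared. With both lists limited to scores at or above their medians there were 1935 islands, shares of 28.7% and 13.8%, 7.03 per Mb, percentile 59.8, 72.4% also isolated, and islands at percentiles 79.5 in PEG1 and 78.1 in the control, high by construction.

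An isolation distance of 10 kb gave 4132 islands, 26.7% of gaps with a PEG1 summit, 11.4 per Mb and 75.2% also isolated. At 30 kb there were 478 islands, 6.59 per Mb, 64.9% also isolated and a control percentile of 62.7. At 50 kb there were 116 islands, 28.2% of gaps with a PEG1 and 8.23% with a control summit, 4.26 per Mb, 83.5% of isolated summits shared, and percentiles of 59.4 in PEG1 and 54.8 in the control. Matching within 50 bp shared 56.7% of isolated summits, at percentiles 68.1 in PEG1 and 64.0 in the control, and within 500 bp 94.2%, at 55.4 in the control. Counting summits over 150 bp from both ends gave 36.2% and 16.3%, 10.4 per Mb and percentile 16.1, and over 2000 bp 24.8% and 5.53%, with 6.79 per Mb. In intervals around isolated shared summits, added after the data were seen, the shares were 36.8% for PEG1 and 16.1% for control summits. Where no construction is named, the cause was not tested. Unknown depth limits what the weaker summits show.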
